A study of Mus musculus with 12 samples.

Results

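The 10 core genes of the circadian clock were Arntl (also called Bmal1), Clock, Per1, Per2, Per3, Cry1, Cry2, Nr1d1, Nr1d2 and Dbp, chosen by name. Every probe set annotated to one of them alone was used. These were 10 probe sets among 21789 with 1 gene symbol (19938 genes) on the Mouse Gene 1.0 ST array used for macrophages and liver, and 16 among 20393 (12394 genes) on the Mouse Genome 430A 2.0 array used for aorta. All 10 genes were measured on both arrays.

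The study compared mice lacking both Prkch, which encodes protein kinase C eta, and Apoe with mice lacking Apoe alone. Both genotypes are C57BL/6J, and the control mice, here called Apoe-/-, therefore also carry the Apoe deletion and its poor clearance of lipoproteins. Peritoneal macrophages, elicited with thioglycolate and not stimulated, were taken from female mice on a regular diet, with 3 arrays of Prkch-/-Apoe-/- cells and 3 of Apoe-/- cells, where replicates 1, 2 and 3 of each genotype were from mice aged 18, 17 and 27 weeks. Livers were those of re-fed males, 20 weeks old and on high-fat diet for 12 of them, with 2 arrays of Prkch-/-Apoe-/- liver and 2 of Apoe-/- liver. Aortas were those of males of the same age and diet, labelled as fed, with 1 array of pooled RNA from 4 mice for Prkch-/-Apoe-/- and 1 for Apoe-/-. The labels give no time of day for any sample, and none for the re-feeding.

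The clock of a mammalian cell is a feedback loop of transcription that takes about a day. ARNTL and CLOCK bind DNA as a pair at E-box sequences and switch on the Per, Cry, Nr1d and Dbp genes. PER and CRY proteins then hold the pair back, while the nuclear receptors NR1D1 and NR1D2 (REV-ERB alpha and beta) repress Arntl through ROR elements, so that Arntl transcripts peak at the opposite time of day to those of Dbp and Nr1d1. In liver these genes are among the strongest rhythms known, with feeding time as a main cue, and glucocorticoid hormone, itself rhythmic, acts on Per1 directly. The level of such a gene in 1 sample thus depends on the hour at which the animal was killed, which makes these genes a check on sampling time.

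Promoter windows were searched for the letters of elements through which the loop runs. RefSeq windows of 250 bases before to 50 bases after the start site (GRCm38.p6) were found for 9 of the 10 genes, all but Per2, as 13 windows, and 6 windows of 6 genes held at least 1 of the motifs searched on both strands. The motifs were the E-box CACGTG, its variant CACGTT, the D-box as TTATGTAA or TTACGTAA, the ROR element core as TAGGTCA or TGGGTCA, and the CRE TGACGTCA, with no overlap between the matches found. Among all 32851 windows of this length, 7.15% held the E-box, 4.68% the variant, 1.06% a D-box, 6.45% a ROR core and 1.79% the CRE. The windows of 4 genes are shown because they carry an element of each kind found, the ROR core, the E-box, its variant and the D-box, with the match in capitals.
Arntl, chr7:113207261-113207560, plus strand, ROR core at +31 from the start site: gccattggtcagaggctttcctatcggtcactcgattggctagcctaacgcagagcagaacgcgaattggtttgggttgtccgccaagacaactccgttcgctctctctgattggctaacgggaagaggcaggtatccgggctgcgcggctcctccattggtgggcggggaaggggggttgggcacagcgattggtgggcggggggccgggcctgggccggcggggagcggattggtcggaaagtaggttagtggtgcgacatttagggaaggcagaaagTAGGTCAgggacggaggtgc
Per1, chr11:69098699-69098998, plus strand, E-box at -166 from the start site: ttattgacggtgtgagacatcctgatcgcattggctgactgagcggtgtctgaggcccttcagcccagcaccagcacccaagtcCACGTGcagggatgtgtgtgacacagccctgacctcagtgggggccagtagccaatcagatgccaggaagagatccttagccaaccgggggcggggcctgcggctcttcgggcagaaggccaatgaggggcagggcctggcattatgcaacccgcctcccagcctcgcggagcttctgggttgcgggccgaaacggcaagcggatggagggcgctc
Nr1d1, chr11:98775328-98775627, minus strand, variant E-box (AACGTG, the reverse complement of CACGTT) at -28 from the start site: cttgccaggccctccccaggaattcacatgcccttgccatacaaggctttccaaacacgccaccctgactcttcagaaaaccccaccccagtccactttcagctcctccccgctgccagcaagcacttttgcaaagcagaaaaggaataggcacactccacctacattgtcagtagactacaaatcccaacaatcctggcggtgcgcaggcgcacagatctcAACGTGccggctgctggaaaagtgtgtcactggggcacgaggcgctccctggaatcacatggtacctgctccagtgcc
Per3, chr4:151044616-151044915, minus strand, D-boxes at -205 and -158 from the start site: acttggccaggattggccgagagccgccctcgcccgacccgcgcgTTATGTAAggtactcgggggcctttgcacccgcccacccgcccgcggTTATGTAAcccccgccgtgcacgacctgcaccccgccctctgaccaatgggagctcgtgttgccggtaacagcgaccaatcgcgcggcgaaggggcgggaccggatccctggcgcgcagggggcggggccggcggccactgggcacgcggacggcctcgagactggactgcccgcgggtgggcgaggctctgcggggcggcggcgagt
The remaining matches were a variant E-box at -79 and an E-box at -60 of Cry1, and a variant E-box at -166 of Cry2. The windows of Clock, Dbp and Nr1d2 held no match. A match describes letters in the window and not a bound site.

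The median probe set value was 6.57 to 6.77 log2 units on macrophage arrays, between 5.88 and 5.93 in liver, and at 30.1 units of signal for the Prkch-/-Apoe-/- aorta pool against 27.8 for the Apoe-/- pool. Prkch, the targeted gene, read 8.79 to 9.36 log2 units in Prkch-/-Apoe-/- macrophages against 9.31 to 9.94 in Apoe-/- macrophages. It read 5.93 and 5.65 in Prkch-/-Apoe-/- livers against 6.57 and 6.87 in Apoe-/- livers, and 9.94 units of signal in the Prkch-/-Apoe-/- aorta pool against 17.2 in the Apoe-/- pool. Its mean was lower in Prkch-/-Apoe-/- samples of all 3 kinds on the probe set used (limma adjusted p = 1.00 in macrophages, where 1 array overlapped, and 0.573 in liver), and where the probes lie relative to the deleted part was not checked. A dimmer second Prkch probe set on the array of macrophages and liver read 3.94 and 4.21 in Prkch-/-Apoe-/- livers against 4.08 and 4.04 in Apoe-/- livers, so it was not lower there, and the liver difference was -0.92 on the probe set used and -0.46 with both averaged. Macrophage markers (6 of 6 measured) summed to 44000 to 47100 units in Prkch-/-Apoe-/- macrophages and 42800 to 45800 in Apoe-/- macrophages, and hepatocyte markers (6 of 6) to 84000 and 88300 in Prkch-/-Apoe-/- livers and 82900 and 84600 in Apoe-/- livers. Identical deposited values split the macrophage arrays into a batch of Prkch-/-Apoe-/- replicate 1 with Apoe-/- replicates 1 and 2, and a batch of Prkch-/-Apoe-/- replicates 2 and 3 with Apoe-/- replicate 3. What separates these batches in the laboratory is not given in the sources used here. In the second batch 66.1% of all genes shared a value between at least 2 of its arrays.

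In liver, the clock genes differed between replicates of the same genotype, and mostly in the same direction in both genotypes. Arntl and Clock, the activating pair, and Nr1d1 were higher in replicate 2 than in replicate 1 of each genotype, while Dbp, Per3, Per2 and Cry1 were lower there. The values below are log2 units.

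Arntl, whose protein is the activator that the clock cannot run without, read 6.27 and 7.20 in Prkch-/-Apoe-/- livers 1 and 2, against 6.19 and 6.83 in Apoe-/- livers 1 and 2. Its partner Clock read 7.92 and 8.75 in Prkch-/-Apoe-/- livers, against 7.99 and 8.48 in Apoe-/- livers. For both genes the 2 replicate 1 livers were low, the 2 replicate 2 livers were high and the genotypes overlapped. Replicate 2 exceeded replicate 1 for Arntl by 0.93 in Prkch-/-Apoe-/- and by 0.64 in Apoe-/- livers, and for Clock by 0.83 and 0.49 in the same order of genotypes.

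Nr1d1, the repressor of Arntl, read 8.09 and 9.62 in Prkch-/-Apoe-/- livers 1 and 2, against 9.10 and 9.88 in Apoe-/- livers 1 and 2. The replicate 1 liver of Prkch-/-Apoe-/- stood lowest, and within each genotype the liver with more Arntl also had more Nr1d1. Nr1d2, which shares the repressing role, read 9.20 and 9.04 in Prkch-/-Apoe-/- livers, against 9.39 and 9.36 in Apoe-/- livers. Here the replicates lay close together and both Prkch-/-Apoe-/- livers were below both Apoe-/- livers.

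Dbp encodes a PAR bZIP activator of output genes that binds D-boxes. The letters of this element occur in the Per3 window above, where binding was not measured. Dbp read 9.42 and 8.86 in Prkch-/-Apoe-/- livers 1 and 2, against 10.05 and 9.25 in Apoe-/- livers 1 and 2. Replicate 2 was the lower liver in both genotypes, by 0.57 in Prkch-/-Apoe-/- and 0.81 in Apoe-/-, opposite to Arntl.

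Among the repressors of the Per family, Per1 read 7.02 and 6.47 in Prkch-/-Apoe-/- livers 1 and 2, against 7.25 and 7.34 in Apoe-/- livers 1 and 2. Both Prkch-/-Apoe-/- livers were below both Apoe-/- livers, and the replicates differed in opposite directions in the genotypes. Per2, whose loss disrupts rhythms in mice, read 7.64 and 7.33 in Prkch-/-Apoe-/- livers, against 7.34 and 7.21 in Apoe-/- livers. Per3, which is not required for the loop, read 6.99 and 6.24 in Prkch-/-Apoe-/- livers, against 6.88 and 6.56 in Apoe-/- livers. Per2 and Per3 were both lower in replicate 2 of each genotype, and the genotypes overlapped.

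Of the Cry genes, which encode the main repressors of the activating pair, Cry1 read 6.93 and 6.73 in Prkch-/-Apoe-/- livers 1 and 2, against 7.19 and 6.64 in Apoe-/- livers 1 and 2. Cry2 read 7.87 and 7.99 in Prkch-/-Apoe-/- livers, against 8.08 and 7.80 in Apoe-/- livers. Cry1 was lower in replicate 2 of both genotypes, while Cry2 differed between replicates in opposite directions.

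**Figure D1:**
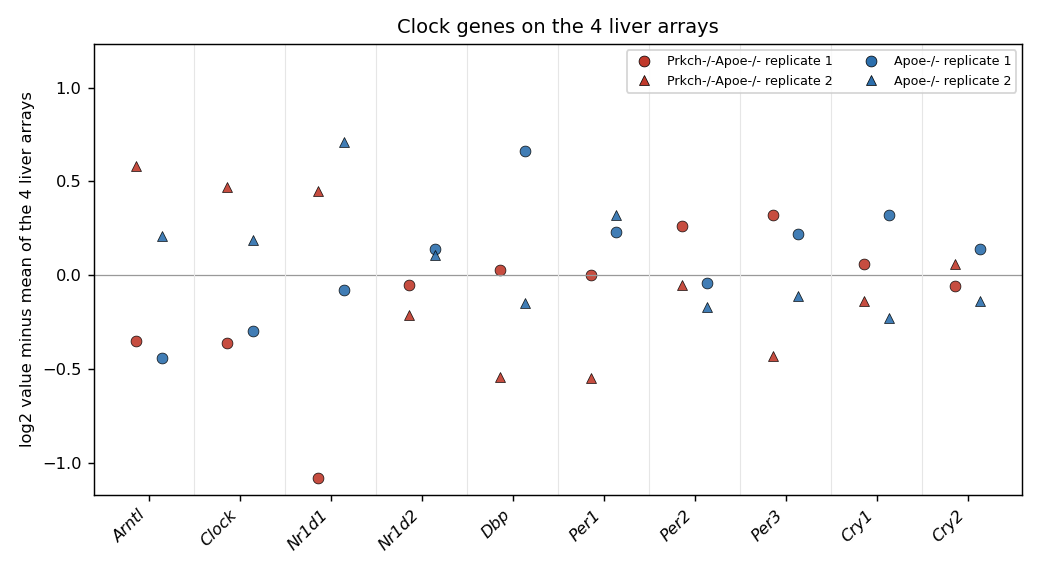
Log2 value of each clock gene on the 4 liver arrays minus its mean over them, with Prkch-/-Apoe-/- arrays in red and Apoe-/- arrays in blue, circles for replicate 1 and triangles for replicate 2. For Arntl, Clock and Nr1d1 both triangles lie above both circles, and for Dbp, Per2, Per3 and Cry1 both lie below.

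Over the 10 genes, 8 had the same sign of replicate 2 minus replicate 1 in both genotypes, where 52.5% of the 15942 genes tested in liver did. The count was as low as 7 under quantile normalisation or median centring. Of the 8, Nr1d2 differed little, by -0.16 in Prkch-/-Apoe-/- and -0.03 in Apoe-/- livers. Both replicate 2 livers lay above both replicate 1 livers for 3 genes (18.5% of all genes) and below for 4 (18.9%). The 5 genes Arntl, Clock, Nr1d1, Dbp and Per3 differed by at least 0.3 log2 units the same way in both genotypes, where 3.20% of all genes did, at a size chosen after the values were seen. Replicate numbers in the labels do not say that same-numbered livers share an hour, a cage or a day. These counts are a description, and sampling time as their source was not tested.

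The clock genes were also among the most variable genes in liver. Their range over the 4 arrays exceeded the median range of all genes, 0.30 log2 units, for 9 of 10. For 6 of them it was in the widest 10% of all genes, led by Nr1d1 with a range of 1.79 (99.7% of genes had a smaller one), Dbp with 1.20 (99.1%) and Arntl with 1.02 (98.5%). Per1, Clock and Per3 followed with ranges between 0.75 and 0.87.

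Most clock relatives had the same sign of replicate 2 minus replicate 1 in both genotypes, some at small differences, and the other companion lists did so less evenly. Of 10 measured clock relatives, 9 had the same sign in both genotypes (52.5% of all genes) and 3 differed by at least 0.3 in both (3.20% of all genes). Both replicate 2 livers lay above both replicate 1 livers for 1 clock relative (18.5% of all genes) and below for 4 (18.9%). Ciart, a repressor of the activating pair, read 7.31 and 6.24 in Prkch-/-Apoe-/- livers 1 and 2, against 8.21 and 7.58 in Apoe-/- livers 1 and 2. Bhlhe40, which competes for E-boxes, was lower in replicate 2 by 0.97 in Prkch-/-Apoe-/- and 0.73 in Apoe-/- livers, and Tef, a PAR bZIP relative of Dbp, by 0.57 and 0.51. Within each genotype these 3 genes were thus lower in the liver with less Dbp, while for Ciart both Prkch-/-Apoe-/- livers were below both Apoe-/- livers.

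Of 8 rhythmic liver output genes measured, 5 had the same sign in both genotypes, a share near the 52.5% of all genes, and 4 differed by at least 0.3, where 3.20% of all genes did. Wee1, a cell cycle kinase with E-boxes in its promoter, was lower in replicate 2 by 0.67 in Prkch-/-Apoe-/- and 0.91 in Apoe-/- livers. Nampt, which makes the NAD used by sirtuins, was lower by 0.62 and 0.95, and Alas1, the first enzyme of haem synthesis, by 0.45 and 0.80. Elovl3, a fatty acid elongase, was higher in replicate 2 by 0.58 and 0.64. These 4 genes separated the replicates alike in both genotypes.

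Among the other outputs, Upp2, a uridine phosphorylase, differed by -2.0 in Prkch-/-Apoe-/- and 0.12 in Apoe-/- livers. Lpin1, a phosphatidate phosphatase induced by fasting, differed by -0.75 and 1.57, and Cyp7a1, the first enzyme of bile acid synthesis, by 0.92 and -0.41. For these 3 genes replicate 2 minus replicate 1 had opposite signs in the genotypes. Of 9 regulators of clock proteins, 3 had the same sign and only Usp2, a deubiquitinase that is itself rhythmic in liver, differed by at least 0.3 in both, by -1.06 in Prkch-/-Apoe-/- and -0.85 in Apoe-/- livers. Of 8 glucocorticoid-responsive genes, 5 had the same sign and 2 differed by at least 0.3. One of these was Fkbp5, a chaperone that restrains the receptor, at 0.63 and 0.50.

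**Figure D2:**
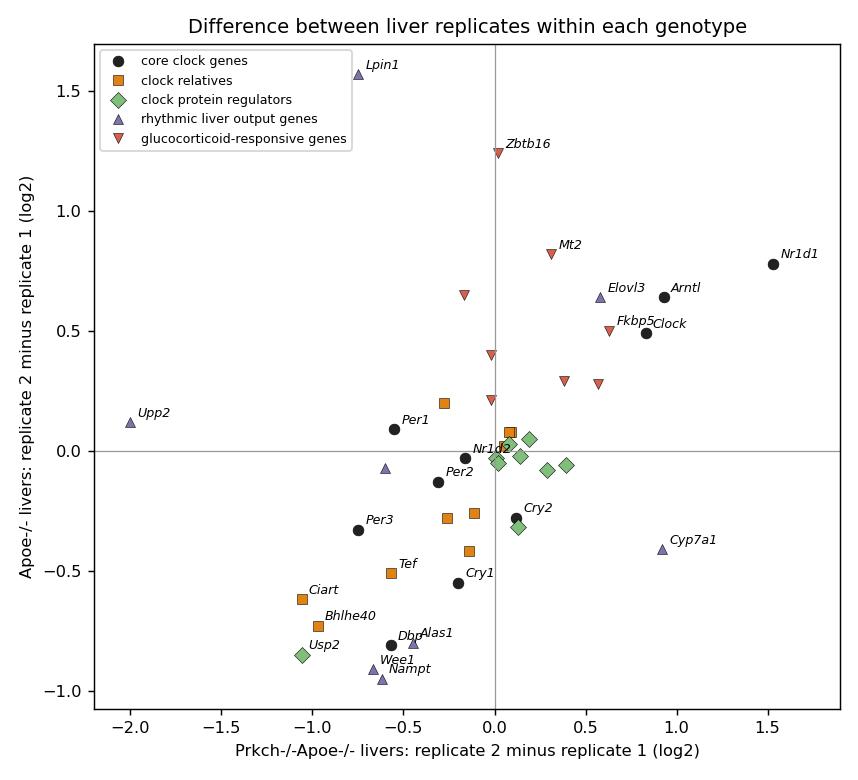
Replicate 2 minus replicate 1 (log2) of each clock gene and companion gene in Prkch-/-Apoe-/- livers (horizontal axis) and Apoe-/- livers (vertical axis), 1 point per gene, with lists by colour and shape. Points at the upper right and lower left of the crossing lines have the same sign in both genotypes, as for 8 of 10 clock genes, with Nr1d1, Arntl and Clock at the upper right and Dbp at the lower left.

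Between genotypes in liver, no clock gene passed the test. By limma with Benjamini-Hochberg adjustment over all genes, 0 of the 10 had an adjusted p under 0.05, where 1 of 15942 genes did (0.00627%), and only Per1 had an unadjusted p under 0.05, where 4.29% of genes did. Prkch-/-Apoe-/- livers were higher for 3 and lower for 7 of the 10, with a median difference of -0.09 against -0.02 over all genes, of which 42.8% were higher; Cry2, at -0.01, was 0.01 higher after quantile normalisation. The genotypes did not overlap for 2 genes, Per1 and Nr1d2 (29.8% of all genes), both lower in Prkch-/-Apoe-/- livers (18.0% of all genes).

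Per1 differed by -0.55 ± 0.19 log2 units (SE, n = 2 and 2, limma adjusted p = 1.00, unadjusted p = 0.0192), that is, 68.4% of the Apoe-/- level. Nr1d1 differed by -0.63 ± 0.45, Dbp by -0.51 ± 0.28 and Nr1d2 by -0.25 ± 0.13 (limma adjusted p = 1.00 for each). Leaving out 1 liver at a time moved the Per1 difference between -0.82 and -0.27 and that of Dbp between -0.92 and -0.11. Arntl differed by 0.23 ± 0.31, with a 95% interval from -0.48 to 0.94, and Clock by 0.11 ± 0.27. Without Prkch-/-Apoe-/- replicate 1 the Nr1d1 difference was 0.14, and without Prkch-/-Apoe-/- replicate 2 that of Arntl was -0.24. The other 4 clock genes differed by between -0.10 and 0.21.

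Companion genes in liver likewise gave 0 calls. The means of all 8 rhythmic output genes were lower in Prkch-/-Apoe-/- livers, where 42.8% of all genes were higher. Noct was nearly equal, at -0.003 ± 0.20. The genotypes overlapped for all 8, where 29.8% of all genes did not overlap. Their median difference was -0.25 against -0.02 over all genes, with no gene under an unadjusted p of 0.05. Clock relatives were split 5 and 5, led by Ciart at -1.12 ± 0.33 (limma adjusted p = 1.00) and Bhlhe41, another E-box repressor, at -0.42 ± 0.17. Another probe set represented Ciart in macrophages, and with both averaged the liver difference of Ciart was -0.95. Among clock protein regulators 3 were higher and 5 lower in Prkch-/-Apoe-/- livers, and 1, Sirt1, had equal means.

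The glucocorticoid-responsive list was lower in Prkch-/-Apoe-/- livers for 7 of 8 genes, where 42.8% of all genes were higher. Its median was -0.41 against -0.02 over all genes. For 5 of the list all Prkch-/-Apoe-/- values were below all Apoe-/- values, where 18.0% of all genes were. The metallothionein Mt2 read 8.05 and 8.36 in Prkch-/-Apoe-/- livers 1 and 2, against 8.69 and 9.51 in Apoe-/- livers 1 and 2, and differed by -0.90 ± 0.25 (limma adjusted p = 0.989). Fkbp5 read 7.34 and 7.97 in Prkch-/-Apoe-/- livers, against 8.01 and 8.51 in Apoe-/- livers, and differed by -0.61 ± 0.24 (limma adjusted p = 1.00). Mt1 differed by -0.63 and Ddit4, an inhibitor of mTORC1, by -0.52. These 4 genes had an unadjusted p under 0.05, where 4.29% of all genes did, and none passed the adjusted threshold.

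Sums of markers of other cell types also differed between genotypes in these livers, with no test. Macrophage markers (6 of 6 measured) summed to 3180 and 3710 units in Prkch-/-Apoe-/- livers against 4180 and 5550 in Apoe-/- livers. Kupffer cell markers (5 of 5) summed to 4790 and 3320 against 5090 and 6420. Neither sum overlapped between genotypes, but 29.8% of all genes did not overlap in liver either. Fibroblast markers, at 2710 and 3510 against 3570 and 3870, were also lower without overlap. So were those of endothelium, adipocytes and, by small margins, skeletal muscle and B cells. Mesothelium markers were higher, at 267 and 320 against 258 and 255. Smooth muscle, adrenal cortex, T cell and hepatocyte sums overlapped. The part of these cell types in the differences above was not tested. In whole tissue, fewer cells of a type and less RNA per cell cannot be told apart.

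In macrophages Arntl, Per1 and Per2 had wider ranges over the arrays than in liver, Cry2 had the same, and the other 6 clock genes had narrower ones. These ranges are over 6 macrophage and 4 liver arrays, with a median over all genes of 0.36 and 0.30, so they are not directly comparable. The share of genes with a smaller range was 96.9% for Arntl and 96.0% for Per1 in macrophages, against 98.5% and 97.5% in liver. For Per2 it was 82.1% in macrophages against 75.9% in liver. The 17-week mice, replicate 2 of each genotype, stood apart: Per1, Per2 and Arntl were higher on both their arrays than on the other 4.

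Per1 read 7.84, 8.66 and 7.77 log2 units in Prkch-/-Apoe-/- macrophages 1, 2 and 3, against 7.51, 8.62 and 7.83 in Apoe-/- macrophages 1, 2 and 3. Both 17-week arrays were at least 0.79 above all others, and by this gap the gene ranked 9 among 15039. Per2 read 6.75, 7.04 and 6.76 in Prkch-/-Apoe-/- macrophages, against 6.62, 7.23 and 6.77 in Apoe-/- macrophages. The 17-week arrays were again the highest pair, with a gap of 0.27 (rank 95). Arntl read 8.20, 9.27 and 8.27 in Prkch-/-Apoe-/- macrophages, against 8.52, 8.66 and 8.01 in Apoe-/- macrophages. Its gap was 0.14 (rank 223), and the Prkch-/-Apoe-/- replicate 2 array stood far above the rest. For 3 of 10 clock genes both 17-week arrays thus lay above the other 4, where 4.29% of genes did, and for 0 they lay below, where 3.46% did. Genes with the same deposited value on Prkch-/-Apoe-/- replicate 2 and another array of the second batch cannot separate in this way. Such ties lower the shares over all genes and thin the ranking. Only Per3 of the clock genes shared a value within that batch, against 66.1% of all genes.

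The other 7 genes showed no such order. Clock read 9.57, 9.39 and 9.30 in Prkch-/-Apoe-/- macrophages 1, 2 and 3, against 9.48, 9.35 and 9.27 in Apoe-/- macrophages 1, 2 and 3. Nr1d1 read 8.19, 8.02 and 7.84 in Prkch-/-Apoe-/- macrophages, against 8.11, 8.03 and 7.96 in Apoe-/- macrophages. Nr1d2 read 9.78, 9.71 and 9.77 in Prkch-/-Apoe-/- macrophages, against 9.73, 9.78 and 9.77 in Apoe-/- macrophages. The whole range of Nr1d2 was 0.08, and only 1.25% of genes had a smaller one. Dbp read 7.90, 7.40 and 7.80 in Prkch-/-Apoe-/- macrophages, against 7.91, 7.94 and 7.98 in Apoe-/- macrophages. All 3 Prkch-/-Apoe-/- values were below all 3 Apoe-/- values, replicate 1 only narrowly, and the replicate 2 array of Prkch-/-Apoe-/-, where Arntl was highest, held the lowest Dbp.

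Cry1 read 8.0, 7.70 and 8.03 in Prkch-/-Apoe-/- macrophages 1, 2 and 3, against 7.73, 8.16 and 8.03 in Apoe-/- macrophages 1, 2 and 3. Cry2 read 7.36, 7.28 and 7.28 in Prkch-/-Apoe-/- macrophages, against 7.10, 7.37 and 7.39 in Apoe-/- macrophages. Per3 read 7.04, 6.82 and 6.82 in Prkch-/-Apoe-/- macrophages, against 6.8, 6.70 and 6.82 in Apoe-/- macrophages. The genotypes overlapped for all 3 genes, and the Per3 value was identical on the 3 arrays of the second batch. Over the 6 arrays, 2 of the 10 genes were in the widest 10% of all genes, Arntl with a range of 1.26 and Per1 with 1.15, and 5 exceeded the median range of 0.36.

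The glucocorticoid-responsive genes marked the same pair of arrays, and more strongly. Both 17-week arrays lay above the other 4 for 6 of 8 such genes, where 4.29% of all genes did. Ties within the second batch lower that share, and of the 8 genes only Ddit4 shared a value there. The counts are thus not on equal terms. Fkbp5 read 10.83 on the Prkch-/-Apoe-/- and 9.49 on the Apoe-/- 17-week array, against 7.59 to 7.76 on the other 4, a gap of 1.72 that was the largest of all 15039 genes (rank 1). Zbtb16, a zinc finger repressor, read 8.73 and 8.45 on those 2 arrays in the same order, against 7.01 to 7.27, with a gap of 1.18 (rank 2). Mt2 read 11.40 and 10.76, against 9.75 to 10.04, with a gap of 0.72 (rank 13). Klf9, Tsc22d3 (which encodes GILZ) and Mt1 followed with gaps of 0.51, 0.50 and 0.20, while Sgk1 and Ddit4 did not separate the arrays.

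Nfil3, the repressor that opposes Dbp at D-boxes, was also higher on both 17-week arrays, by at least 0.49, and Wee1 and Usp2 by at least 0.17 and 0.16. Alas1 was lower, at 9.86 on the Prkch-/-Apoe-/- and 10.92 on the Apoe-/- 17-week array against 11.39 to 11.72 on the other 4. These genes were grouped by age after their values were seen, so no test is given. The 17-week arrays lie in different sets by identical deposited values. B cell markers (4 of 5 measured) summed to 3470 on the Prkch-/-Apoe-/- and 603 on the Apoe-/- 17-week array, against 546 and 697 on the other Prkch-/-Apoe-/- arrays and 1390 and 772 on the other Apoe-/- arrays, so these markers were high on 1 of the pair only. Fibroblast markers (5 of 5 measured) summed to 668 on the Prkch-/-Apoe-/- and 1440 on the Apoe-/- 17-week array, against 2560 and 1160 on the other Prkch-/-Apoe-/- arrays and 2860 and 2130 on the other Apoe-/- arrays. Mesothelium markers (5 of 5) summed to 409 and 570 on the 17-week arrays in the same order of genotypes, against 597 and 474 and against 716 and 614. Both sums were thus lowest on the 17-week array within each genotype, and the part of other cell types was not tested. Age is the labelled feature that the pair shares, the hour of sampling is not in the labels, and the part of either was not tested.

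**Figure D3:**
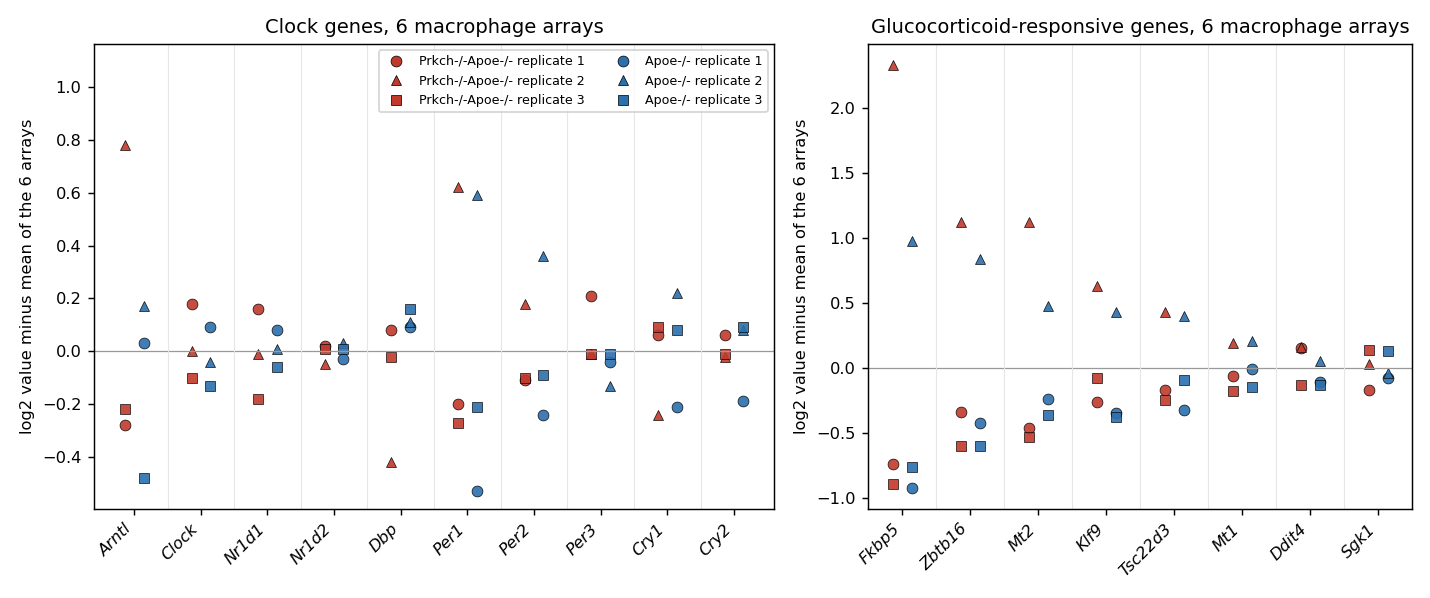
Log2 value on the 6 macrophage arrays minus the mean over them, for the clock genes (left) and the glucocorticoid-responsive genes (right), with Prkch-/-Apoe-/- in red, Apoe-/- in blue, and circles, triangles and squares for replicates 1 (18 weeks), 2 (17 weeks) and 3 (27 weeks). Both triangles lie above all other points for Per1, Per2 and Arntl at left and for 6 of 8 genes at right, led by Fkbp5.

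Between genotypes in macrophages no clock gene passed the test. By limma with Benjamini-Hochberg adjustment, 0 of the 10 were called, as were 0 of 15039 genes (0%), and 0 of the 10 had an unadjusted p under 0.05, where 105 genes did (0.698%). Prkch-/-Apoe-/- macrophages were higher for 5 clock genes and lower for 5, with a median difference of 0.01 against -0.04 over all genes, of which 36.5% were higher. Of those lower, Per2, Nr1d1 and Nr1d2 lay above 0 after quantile normalisation or median centring. Dbp differed by -0.24 ± 0.14 (SE, n = 3 and 3, limma adjusted p = 1.00) and was the only clock gene whose groups did not overlap, where 2.25% of all genes did not overlap and 1.60% had all 3 Prkch-/-Apoe-/- arrays lower. A value shared between Apoe-/- replicate 3 and a Prkch-/-Apoe-/- array of the second batch prevents such a separation, so ties lower these shares. Dbp had no shared value in that batch. The other 9 clock genes differed by between -0.06 and 0.18.

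Age and batch move with single differences. Arntl differed by 0.18 ± 0.32 over all arrays, by -0.39 within the first batch and 0.76 within the second, and Per1 by 0.10 ± 0.35 over all arrays, by -0.23 and 0.38 within the batches. In each batch the 17-week array belongs to 1 genotype, Apoe-/- in the first and Prkch-/-Apoe-/- in the second, and in each the genotype holding it was the higher one for both genes. Without the 17-week arrays the difference was -0.03 for Arntl and 0.13 for Per1, so that of Per1 was no smaller than over all arrays. Dbp differed by -0.02 within the first batch and -0.38 within the second. The companion lists gave 0 calls. Higher in Prkch-/-Apoe-/- macrophages were 5 of 9 clock relatives, 6 of 9 clock protein regulators, 0 of 5 output genes and 6 of 8 glucocorticoid-responsive genes. Of all genes, 36.5% were higher there.

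**Figure D4:**
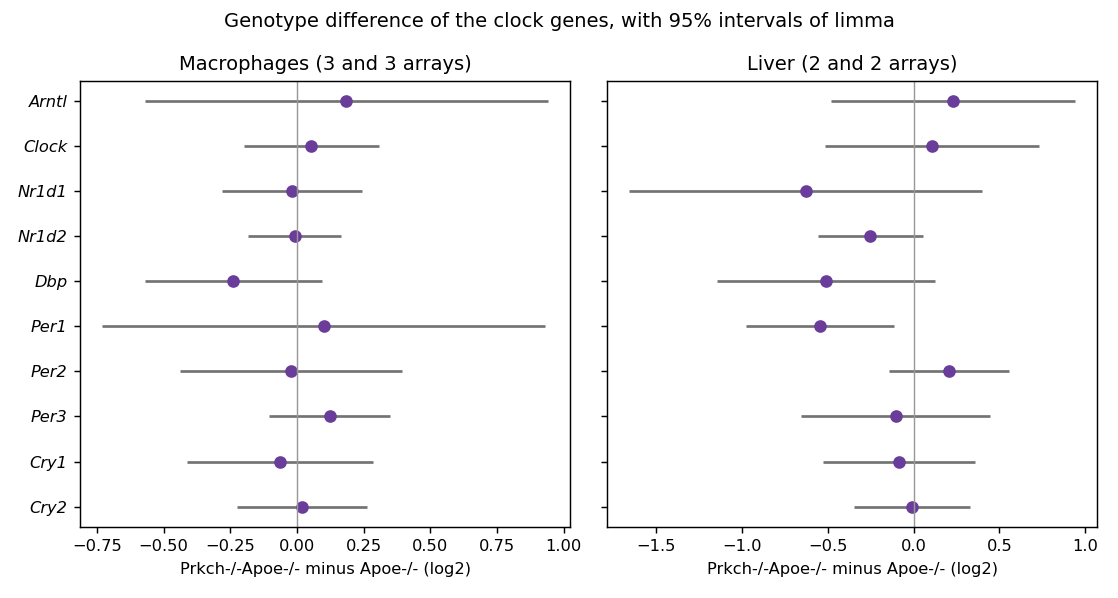
Prkch-/-Apoe-/- minus Apoe-/- (log2) of each clock gene in macrophages (left) and liver (right), as points with 95% intervals from limma. In macrophages every interval includes 0, and in liver all but that of Per1 do, whose adjusted p was 1.00.

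The genotype difference was set against itself in the other setting, macrophage difference minus liver difference, in 1 limma fit over the 10 arrays of this platform. None of the 10 clock genes passed (adjusted p = 1.00 for each), as 0 of 15548 genes did (0%), and 0 of the 10 had an unadjusted p under 0.05 where 313 genes did (2.01%). Per1 had the largest value, 0.65 ± 0.48 log2 units, followed by Nr1d1 with 0.61 ± 0.52. Sex, diet, feeding and age change with the tissue in this contrast.

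In the aorta, with 1 pool per genotype and no test, no clock gene differed by 2-fold between the pools, where 90 of 7098 genes kept did (1.27%). A gene was kept if the higher of its 2 values was at or above 32.6, the median of such higher values over all probe sets. Of the 10 clock genes 8 were kept, 3 higher and 5 lower in the Prkch-/-Apoe-/- pool, where 51.5% of all genes kept were lower. Differences are on the log2(signal + 16) scale, which understates those of dim genes.

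Among the activators, Arntl read 36.2 units of signal in the Prkch-/-Apoe-/- pool against 43.7 in the Apoe-/- pool, a difference of -0.20. Clock had probe sets of 104 against 113 and of 48.2 against 45.5, in the same order of pools, which differed by -0.10 and 0.06. The probe sets of Clock thus disagreed in sign at differences close to 0.

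Of the repressors, Per1 read 78.7 in the Prkch-/-Apoe-/- pool against 93.3 in the Apoe-/- pool (-0.21). Per2 read 49.0 against 43.1 (0.14), with a dim second probe set. Cry1 read 41.3 against 55.7 (-0.32) and Cry2 read 33.0 against 25.6 (0.24), so paralogues differed in sign in both families. All 3 Per3 probe sets were under the limit of 32.6, between 7.47 and 22.3 in the Prkch-/-Apoe-/- pool and between 6.07 and 23.3 in the Apoe-/- pool.

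Nr1d2 read 291 in the Prkch-/-Apoe-/- pool against 226 in the Apoe-/- pool, and its 0.34 was the largest difference of the clock genes kept. A second Nr1d2 probe set was near the floor of the array, at 4.88 against 0.712. Nr1d1 was dim, at 25.1 against 24.7. Dbp read 112 against 126 on 1 probe set (-0.14) and 36.6 against 47.3 on the other (-0.27), both lower in the Prkch-/-Apoe-/- pool.

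Beside the loop, all 5 clock relatives kept were lower in the Prkch-/-Apoe-/- aorta pool, where 51.5% of all genes kept were. Hlf, a PAR bZIP factor, was at 24.8 against 42.9 (-0.53) and Bhlhe40 at 148 against 199 (-0.39). Among output genes, 3 were higher and 3 lower, and Noct, a rhythmic phosphatase once classed as a deadenylase, read 296 against 519 (-0.78). Of the glucocorticoid-responsive genes 6 of 8 were higher in the Prkch-/-Apoe-/- pool, led by Fkbp5 at 140 against 97.4 (0.46), and of 7 clock protein regulators 2 were. The pools differed in tissue content. Adrenal cortex markers (5 of 6 measured) summed to 1080 units in the Prkch-/-Apoe-/- pool against 39.0 in the Apoe-/- pool, skeletal muscle markers (6 of 6) to 5570 against 9170, B cell markers (4 of 5) to 631 against 88.6 and smooth muscle markers (6 of 6) to 4520 against 3660. Their part in the clock gene values was not tested.

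**Figure D5:**
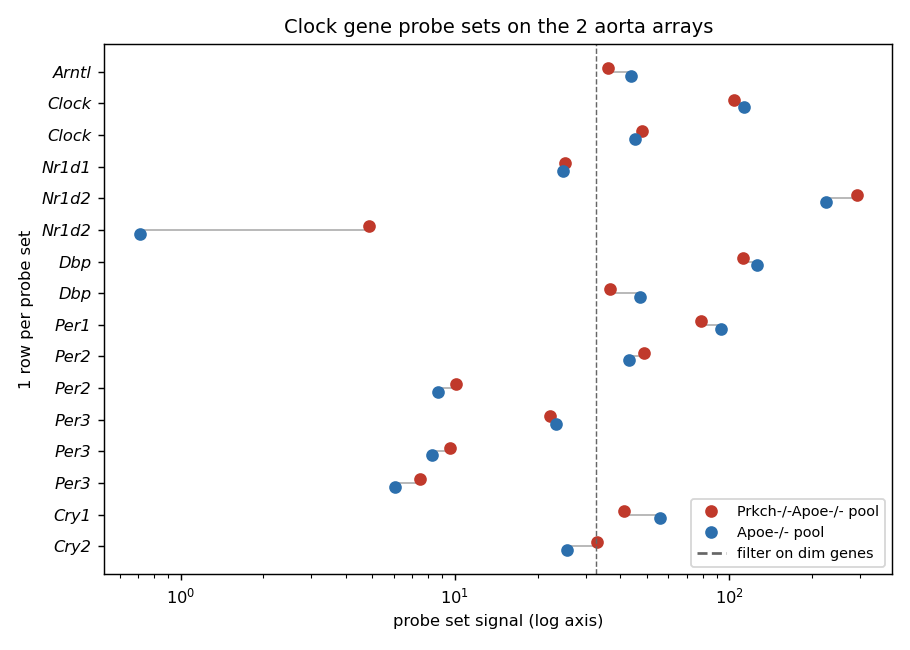
Signal (log axis) of each of the 16 clock gene probe sets on the aorta arrays, with the Prkch-/-Apoe-/- pool in red above the Apoe-/- pool in blue in each row, and the limit of 32.6 for genes kept as a dashed line. Pairs to the right of the line lie close together, and the widest pair, a probe set of Nr1d2, is at the dim end.

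Relative to the array median, the clock genes had other levels in the settings. Dbp stood 1.15 ± 0.20 log2 units above the median in macrophages and 3.49 ± 0.49 above it in liver (SD over 6 and 4 arrays), and Nr1d1 stood 1.35 ± 0.06 and 3.27 ± 0.81 above it. Arntl was the opposite, 1.82 ± 0.45 in macrophages and 0.72 ± 0.50 in liver. Nr1d2 was at a like level in both, 3.08 ± 0.08 and 3.34 ± 0.15. These values compare a probe set with itself across arrays of differing sex, diet and tissue and are given with no test.

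Across the 10 arrays, with each tissue's mean removed, Arntl and Dbp ran opposite to each other, with Pearson's r of -0.81, and Dbp ran with Tef at 0.92. Arntl had r of 0.62 with Clock and 0.46 with Nr1d1. Of 14617 genes tested in both tissues, those most like Arntl were Rnf141 (0.95), Ndufaf7 (0.95), Arsg (0.94) and Parn (0.94), and those most opposite were Tef (-0.93), Prnp (-0.92), Vegfb (-0.92) and Ybx1 (-0.92). Those most like Dbp were Ptdss1 (0.93), Tef (0.92), Ilk (0.92) and Blnk (0.92), and those most opposite were Spice1 (-0.96), Zfp62 (-0.92), Camk1d (-0.91) and Emc2 (-0.91). With so few arrays, which share batches and tissues, many genes reach such values, and they are a description with no p.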

How the data were processed

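Total RNA of 12 samples was hybridised to Affymetrix arrays, which the authors analysed in Affymetrix Expression Console according to the submitters' processing notes; version, algorithm and the arrays normalised together are not stated there. Macrophage and liver values, as deposited, were read as log2 summaries per probe set, normalised by the authors, and the deposited aorta values as linear intensity, from their ranges. No step of that normalisation was repeated. The number of arrays limits the precision, and p-values measure the spread between samples that the labels call biological replicates. In the second macrophage batch 66.1% of genes shared a deposited value between at least 2 arrays. For these genes the macrophage p-values do not measure that spread alone.

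Gene names are those of the platform annotation, with 1621 of 35557 probe sets on the macrophage and liver array and 691 of 22690 on the aorta array left out for several symbols, and 12147 and 1606 unnamed. Companion genes without a probe set of their own were not analysed here. A gene was represented by its probe set with the highest mean, and genes below the 30th percentile of probe set means were dropped, leaving 15039 genes for macrophages and 15942 for liver, all 10 clock genes among them. Macrophages and liver were each fitted with limma 3.58.1 in R 4.3.3 (lmFit and eBayes, no covariate), knockout minus control, with Benjamini-Hochberg adjustment over all genes and a threshold of 0.05. The limma steps were tested on simulated data. The aorta was compared as log2(signal + 16) with a 2-fold limit. Genes were kept if the higher of their 2 values reached the median of such higher values over all probe sets. Cell type marker sums are linear. Ranges, replicate differences and gaps are over the arrays of 1 tissue.

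The clock genes, the companion lists and the tests were chosen with earlier results of these data known. Of each companion list up to 4 members per tissue were named by smallest p, or largest difference in the aorta; others, named for how they separated replicates or 17-week arrays, were chosen after their values were seen, as were the sizes of 0.3 and 0.5. Alternatives were quantile and median normalisation, no filter, every probe set, array weights, the trended prior, batch and replicate blocks, leaving out each array, all 10 arrays in 1 fit, and pseudocounts in the aorta; leaving out the 17-week arrays was added after seeing the data.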

Additional observations from a re-analysis of the deposited data

How the results depend on the processing

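No clock gene was called in macrophages or liver under any alternative run, and in macrophages 0 genes at all were called throughout. In liver the count of called genes, 1 over all genes, was 0 under quantile normalisation, without the filter, with the trended prior and in 1 fit over all 10 arrays, and 2 with every probe set tested. Leaving out single liver arrays gave 0 to 36 calls, and the 36 came without Prkch-/-Apoe-/- replicate 2. In the aorta 169 genes passed 2-fold at a pseudocount of 1 and 44 at 50, against 90 at 16. For macrophage minus liver the count was 0 except without Prkch-/-Apoe-/- liver replicate 2, where leaving out arrays gave 0 to 1.

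Replicate numbers match in age in macrophages but were not shown to pair the samples further. Deviations of same-numbered arrays correlated at 0.40, 0.03 and 0.50 in macrophages and 0.11 in liver. The macrophage pairs at 0.40 and 0.50 each lay within a batch, and the pair at 0.03 was split across batches. Pairing and batch cannot be told apart there. With the replicate block, 23 genes were called in liver and 0 in macrophages. In liver the block gave adjusted p (limma, n = 2 pairs) of 0.4 for Per1, 0.311 for Nr1d1, 0.329 for Dbp and 0.0533 for Mt2, and Ciart at -1.12 was called with 0.0122.

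Small macrophage differences changed sign with the setting, none of them called, and the cause was not tested. Under quantile normalisation Per2 was 0.0013, Nr1d1 0.012 and Nr1d2 0.013, and after median centring 0.0089, 0.013 and 0.022. With array weights, a fit that stopped before convergence, Arntl was -0.15, Clock -0.084, Per1 -0.18, Cry1 0.037, Nr1d2 0.0051, Tef 0.067, Fkbp5 -0.49 and Klf9 -0.0025. With batch as a block Nr1d1 was 0.043, and Clock for macrophage minus liver was 0.0098. Without the 17-week arrays Arntl was -0.025, Per2 0.058, Cry1 0.14, Nr1d2 0.025 and Tef 0.028. In liver Cry2 was 0.011 under quantile normalisation.

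Leaving out 1 array at a time also turned signs of values that were not called. The lowest and highest values in macrophages were for Arntl -0.16 to 0.37, Clock -0.022 to 0.12, Per1 -0.18 to 0.42, Per2 -0.15 to 0.15, Cry1 -0.19 to 0.041, Cry2 -0.073 to 0.069, Nr1d1 -0.11 to 0.068, Nr1d2 -0.025 to 0.014, Tef -0.21 to 0.035, Fkbp5 -0.58 to 1.07 and Klf9 -0.068 to 0.46. In liver they were for Arntl -0.24 to 0.69, Clock -0.31 to 0.52, Per3 -0.48 to 0.27, Cry1 -0.36 to 0.19, Cry2 -0.15 to 0.13, Nr1d1 -1.39 to 0.14, Usp2 -0.97 to 0.092 and Lpin1 -1.52 to 0.053; without a change of sign, Ciart ranged from -1.65 to -0.59, Mt2 from -1.31 to -0.48 and Fkbp5 from -0.92 to -0.30. For macrophage minus liver they were for Arntl -0.51 to 0.42, Clock -0.47 to 0.36, Per3 -0.15 to 0.60, Cry1 -0.26 to 0.30, Cry2 -0.11 to 0.17, Nr1d1 -0.15 to 1.38 and Dbp -0.13 to 0.68.

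With 2 or 3 arrays per genotype, differences of the size seen between replicates could not be told from genotype differences. Arrays left alone in a genotype were assumed to vary like the other genotype.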

Other observations

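Other genes that set the 17-week macrophage arrays apart were described from the ranking of all 15039 genes by their gap. Both arrays lay at least 0.5 log2 units above the other 4 for 35 genes (0.233%). Genes whose Prkch-/-Apoe-/- replicate 2 value was tied within the second batch could not do so, which lowers this share. S100a9 and S100a8, calcium-binding proteins abundant in neutrophils, came directly after Fkbp5 and Zbtb16. S100a9 read 8.08 on the Prkch-/-Apoe-/- and 7.75 on the Apoe-/- 17-week array, against 6.07 to 6.62 on the other 4. S100a8 read 8.19 on the Prkch-/-Apoe-/- and 8.0 on the Apoe-/- 17-week array, against 6.55 to 6.98.

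Mertk, a receptor for the uptake of dying cells, read 11.61 on the Prkch-/-Apoe-/- and 11.44 on the Apoe-/- 17-week array, against 10.55 to 10.80. Thbs1, which encodes thrombospondin, read 13.93 and 13.06 in the same order, against 11.96 to 12.19. Trem1, an amplifying receptor of myeloid cells, read 10.49 and 7.23, against 5.99 to 6.40, so the 2 arrays were far from equal for this gene. In the other direction Tnf, the inflammatory cytokine, read 8.04 on the Prkch-/-Apoe-/- and 8.59 on the Apoe-/- 17-week array, against 9.02 to 9.39. Dio2, the deiodinase that activates thyroid hormone, read 6.71 and 8.82, against 9.49 to 10.05. These genes were chosen after their values were seen and carry no test.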
